A study of Mus musculus with 24 samples.

Results

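The comparison set cultured mouse granulosa cells that received an siRNA against Nts against cells that received a control siRNA, both after 12 h of human chorionic gonadotropin (hCG). Its members were taken by their labels from the deposited table of estimated counts: 4 siNTS and 4 siNC libraries, 8 of the 24 libraries in the series, paired by the culture labels A_1, A_2, B_2 and B_3. Both groups were primary granulosa cells of C57BL/6 mice, 23 days old and still immature, taken 48 h after an injection of PMSG, a gonadotropin from mare serum that makes follicles grow. Each culture held cells of 2 mice, was transfected on plating for 3 h, and then received hCG for 12 h. The titles do not state what a label or a date stands for, so culture label and culture date are names used here. The titles give 3 dates for the 4 labels, A_2 and B_2 having the same one. Nothing in the labels says whether those 2 were separate pools of mice. The p-values measure the spread left once differences between culture labels are taken out, pooled over all 24 libraries. How many separate pools of mice stand behind it is not known. The other 16 libraries were siNTS and siNC cells after 4 h of hCG, and siNC cells without hCG at both times. Cells with siNTS and no hCG were not analysed here, so every value is for the siRNA in the presence of hCG.

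Granulosa cells surround the oocyte and make ovarian steroids. The luteinizing hormone surge, which hCG mimics at the same receptor, makes them express the genes of ovulation. Nts encodes the precursor of neurotensin, a secreted peptide that acts on G protein-coupled receptors and is best known from gut and brain. An siRNA is loaded into an Argonaute protein, and one of its strands guides the cleavage of a fully matching mRNA. Like a microRNA, that strand can also lower mRNAs that pair only with its seed, the bases near its 5′ end, mostly through sites in 3′ untranslated regions (3′ UTRs). Neither siRNA's sequence is stated in the labels used here.

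Library totals were 36.8 to 40.7 M estimated counts with siNTS and 40.2 to 43.1 M with siNC. The identity of the cells was checked with 11 granulosa markers, which were all detected and summed to 2280 to 2570 CPM with siNTS, overlapping siNC, whose lowest library was at 2120 CPM (CPM, counts scaled to a common library size). On the first principal component of the 8 libraries (48.1% of variance) both A_1 libraries stood apart, siNTS at −62.3 and siNC at −45.3, with the other 6 between 0 and 37.6, and on the second (18.2%) siNTS B_3 stood apart at −48.8. The siNTS library A_1 held oocyte transcripts: the 9 tested oocyte markers summed to 16.3 CPM there, 3.55 to 7.01 CPM in the other 3 siNTS libraries and 3.85 to 4.68 CPM with siNC, and Gdf9, an oocyte growth factor, stood at 5.85 CPM there and at 1.09 CPM or less elsewhere. The siNTS library B_3 was high in some hypoxia-responsive transcripts: Slc16a3, a lactate exporter, measured 239 CPM, against 10.7 to 29.2 CPM in the other siNTS libraries and 12.4 to 23.5 CPM with siNC. Counts of changed genes are therefore given also without each of these labels.

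Nts is the gene the siRNA was aimed at, and its transcript was low in both groups by 12 h. It measured 0.154, 0.121, 0.0764 and 2.73 CPM in siNTS libraries A_1, A_2, B_2 and B_3, and 2.69, 1.56, 1.49 and 9.67 CPM in the siNC libraries in the same order. The groups overlap because label B_3 was the highest in both, but siNTS was the lower library under all 4 labels. The log2 fold change was −2.76 ± 0.56 (± standard error; edgeR quasi-likelihood test with the culture label as a block, adjusted p = 0.0219). It no longer passed when label A_2 (adjusted p = 0.268) or B_2 (0.348) was left out, with limma-voom (0.0928), or without the block (log2 fold change −2.34, adjusted p = 1).

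Few genes differed between siNTS and siNC cells at 12 h. Of 15405 genes tested, 63 fell and 28 rose (adjusted p under 0.05), which is 0.409% and 0.182% of the genes, or 0.591% together, while 6.24% had an unadjusted p under 0.05. All 63 were lower with siNTS under all 4 labels and all 28 were higher under all 4. The siNTS and siNC libraries did not overlap in CPM for 42 of the 63 and 24 of the 28, where such a split was seen in the lower direction for 1.41% and in the higher direction for 1.05% of all genes. The changes were modest, with a median log2 fold change of −0.74 among the genes that fell and 0.55 among those that rose, beside 0.015 over all genes. Only 12 of the genes that fell and 2 of those that rose changed by at least 1 on the log2 scale. The count depends on the label block, with 25 genes called without it, and on single labels. It was 151 without A_1, 23 without A_2, 14 without B_2 and 23 without B_3.

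**Figure D1:**
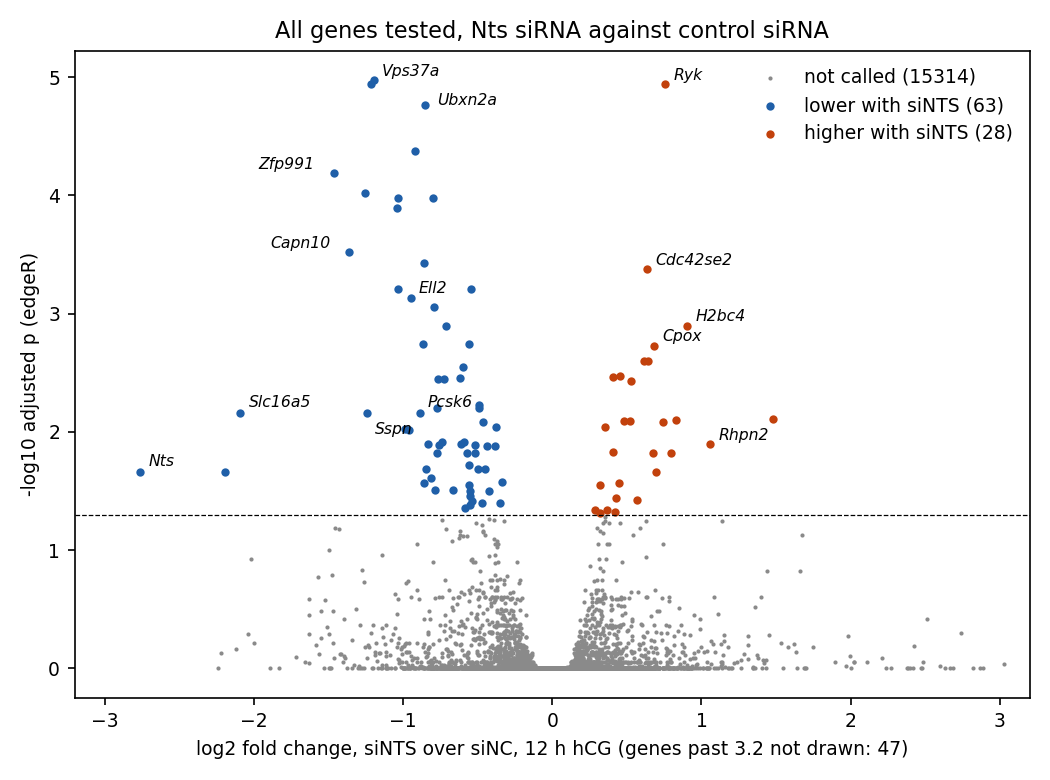
Each point is a gene, placed by its log2 fold change of siNTS over siNC after 12 h of hCG and by −log10 of its adjusted p from edgeR, with the dashed line at the threshold. The 63 genes called lower reach further from 0 than the 28 called higher, and the highest points are Vps37a, at 1.06e-05, with Ryk and the unnamed point of Znf41-ps next at 1.14e-05.

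The gene with the smallest adjusted p was Vps37a, which encodes a subunit of ESCRT-I, the complex that sorts ubiquitinated membrane proteins into endosomes bound for the lysosome. It measured 27.9, 53, 38.7 and 39.2 CPM with siNTS (A_1, A_2, B_2, B_3) and 74.0, 95.7, 87.9 and 101 CPM with siNC. Every siNTS library lay below every siNC library, with a log2 fold change of −1.20 ± 0.11 (adjusted p = 1.06e-05). It was the 1 gene of 21 tested for lysosome and endosomal sorting that was called, where 0.591% of all genes were. The median of that list was 0.03. Capn10, a member of the calpain family of cysteine proteases, behaved alike, at 13.2, 15.8, 13.9 and 11.2 CPM with siNTS and 39.6, 31.4, 32.7 and 34.7 CPM with siNC (−1.36 ± 0.17, adjusted p = 0.000301). Stx17, a SNARE protein of autophagosome fusion, fell by less (−0.54 ± 0.07, adjusted p = 0.000622). Ubxn2a, which encodes a cofactor of the p97 ATPase (−0.85 ± 0.08, adjusted p = 1.71e-05), and Usp12, a deubiquitinase (−0.71 ± 0.10, adjusted p = 0.00127), also fell.

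Ell2, an elongation factor for RNA polymerase II, measured 8, 15.3, 11.5 and 13.2 CPM with siNTS and 17.6, 24, 23.2 and 26.7 CPM with siNC, without overlap (−0.95 ± 0.13, adjusted p = 0.000732). The lysine methyltransferase gene Setd7 fell (−0.87 ± 0.13), as did Foxp2, a forkhead factor (−0.85 ± 0.17), Smarca2, an ATPase of SWI/SNF chromatin remodelling (−0.73 ± 0.12), Med14, a Mediator subunit (−0.52 ± 0.10), and the cell cycle factor gene E2f2 (−0.47 ± 0.10). Their adjusted p-values ran from 0.00181 for Setd7 to 0.0399 for E2f2.

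Genes with a zinc finger symbol (Zfp or Znf) were 14 of the 63 that fell and 0 of the 28 that rose, against 376 of the 15405 tested, so 3.72% of them were called lower beside 0.409% of all genes. Zfp991 showed the largest change of these among genes above 1 CPM, at 9.70, 19.9, 16.6 and 16.2 CPM with siNTS and 35.5, 46.8, 45.2 and 38.3 CPM with siNC (−1.47 ± 0.16, adjusted p = 6.46e-05). Zfp984 (−1.25 ± 0.14), the pseudogene Znf41-ps (−1.21 ± 0.12), Zfp982 (−1.04 ± 0.12), Zfp992 (−1.03 ± 0.12) and Zfp993 (−0.99 ± 0.18) followed. These 6, with Zfp978, Zfp979 and Gm13212, lie within 2225 kb of mouse chromosome 4 (chr4:145585166-147809788 in GRCm38), a stretch in which 12 genes were tested. Of those 12, 9 were called lower and 0 higher by edgeR, and the log2 fold changes of all 12 were between −2.20 and −0.79. The cluster consists of closely related KRAB zinc finger genes, so estimated counts may be shared among copies and the 9 are not independent. Outside it, Zfp946 on chromosome 17 (−0.92 ± 0.10, adjusted p = 4.25e-05) and Zfp512 on chromosome 5 (−0.80 ± 0.09, adjusted p = 0.000105) were the next in size. Over all 376 zinc finger symbols the median was −0.04.

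Sgms2, a sphingomyelin synthase that was called lower, measured 72.7, 78.6, 70.4 and 69.4 CPM with siNTS and 152, 131, 160 and 123 CPM with siNC (−0.96 ± 0.18, adjusted p = 0.00957). Every siNTS library was lower than every siNC library. Sspn, which encodes sarcospan of the dystrophin complex, fell by 1.24 ± 0.22 on the log2 scale (adjusted p = 0.00695). Ednra, the type A endothelin receptor, fell by 0.86 ± 0.18 (adjusted p = 0.0271), and Nras, a small GTPase of the ERK pathway, by 0.74 ± 0.14 (adjusted p = 0.0122). Ednra did not pass in any fit that left a label out. Slc16a5, of the monocarboxylate transporter family, had the largest change after Nts and Zfp978 (−2.09 ± 0.37, adjusted p = 0.00695), but at 0.226 to 0.356 CPM with siNTS and 0.950 to 1.57 CPM with siNC. The noncoding RNA Norad, known to bind Pumilio proteins, stood at 163, 211, 175 and 154 CPM with siNTS and 297, 332, 339 and 301 CPM with siNC (−0.86 ± 0.11, adjusted p = 0.000371).

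The list for neurotensin, its receptors and peptide processing had 12 tested members. The receptor genes Ntsr1 and Ntsr2 had too few counts to test. Besides Nts, Pcsk6, a proprotein convertase, fell (−0.89 ± 0.16, adjusted p = 0.00695). It measured 25.1, 55.6, 35.3 and 36 CPM with siNTS and 45.1, 82.0, 65.7 and 88.7 CPM with siNC, lower under each label though the groups overlap. The other 10 did not pass. Among them were the convertases Pcsk5 (0.11) and Furin (−0.05), the sorting receptors Sort1 (0.03) and Sorl1 (0.07), and the peptidases that degrade neurotensin, Thop1 (0.19), Nln (0.08), Mme (−0.14) and Ece1 (0.01). Pcsk2 stood at 0.47 ± 0.21 (adjusted p = 0.719). Of 13 genes of the RNA interference machinery, Ago3, an Argonaute gene, fell (−0.81 ± 0.17, adjusted p = 0.0246), and 0 rose, where 0.591% of all genes were called. The list's median was −0.14.

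**Figure D2:**
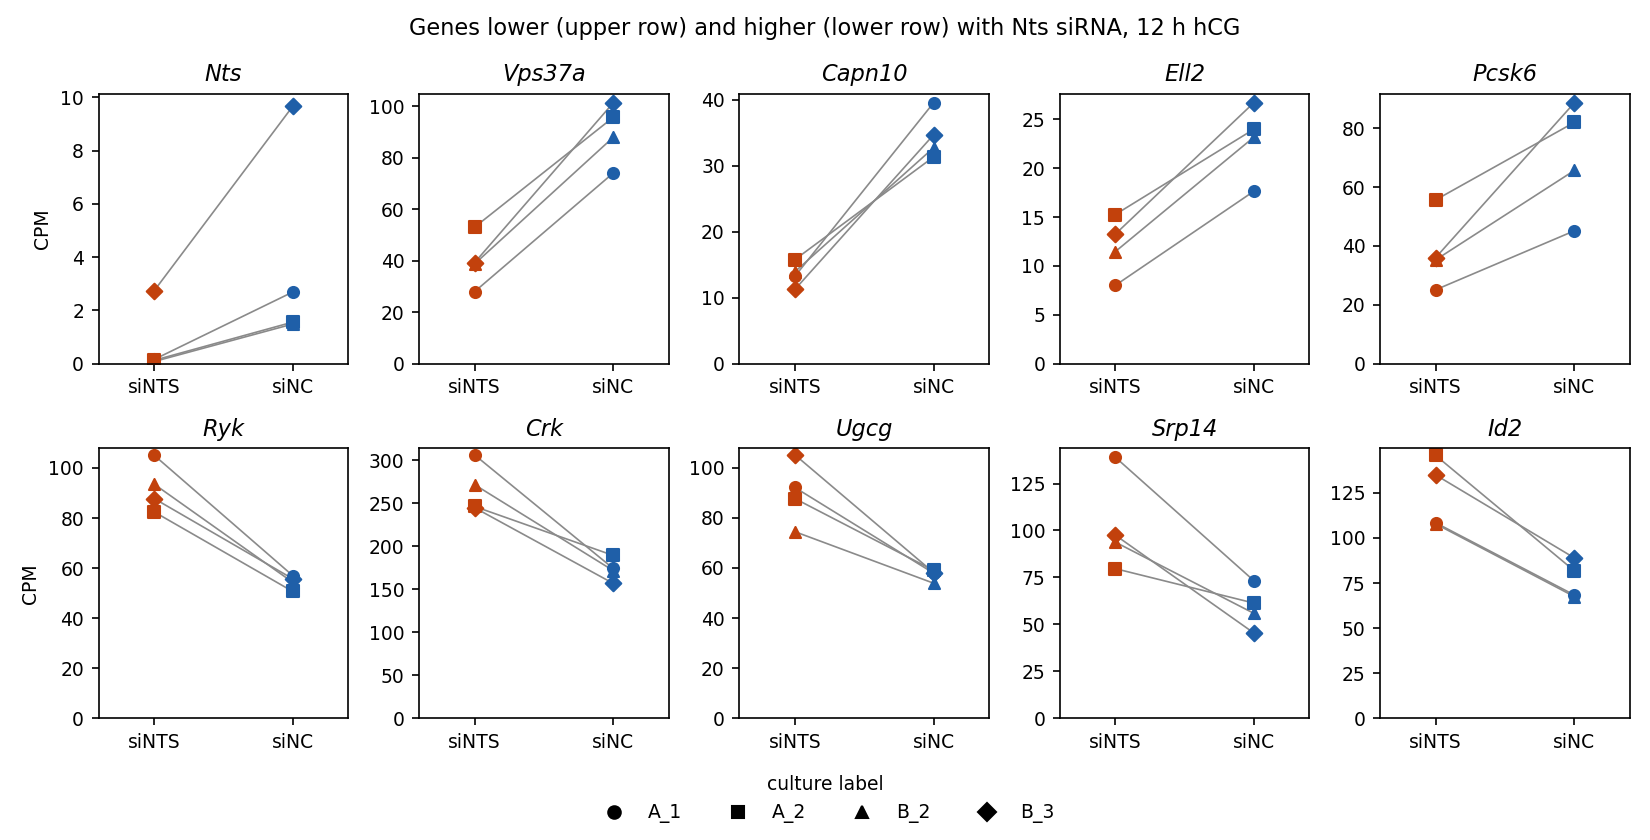
CPM in each library for 5 genes that fell (upper row) and 5 that rose (lower row), with siNTS on the left of each panel and siNC on the right. Lines join libraries of the same culture label, and every line slopes the same way within a panel, from Nts at 0.0764 to 9.67 CPM to Crk at 157 to 306 CPM.

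The 28 genes that rose had smaller changes at higher abundance. Their median level was 81.8 CPM, against 31.1 CPM for the genes that fell. Ryk, a Wnt receptor related to tyrosine kinases, measured 105, 82.5, 93.6 and 87.8 CPM with siNTS and 57.0, 50.7, 54.3 and 55.8 CPM with siNC (0.75 ± 0.07, adjusted p = 1.14e-05). The 2 groups were well apart. Crk, an adaptor protein that couples phosphotyrosines to small GTPases, measured 306, 246, 272 and 245 CPM with siNTS and 174, 190, 172 and 157 CPM with siNC (0.62 ± 0.10, adjusted p = 0.00252). Also called higher were Cdc42se2, a Cdc42 effector (0.64 ± 0.08), Rhpn2, which encodes a rhophilin, at 1.38 to 2.20 CPM with siNTS and 0.746 to 0.926 CPM with siNC (1.06 ± 0.20), and Fscn1, an actin-bundling protein (0.53 ± 0.09). Genes of the cytoskeleton were called in the other direction too, among them Actr2, a subunit of the Arp2/3 complex (−0.39 ± 0.07), and Mapre3, a microtubule end-binding protein (−0.83 ± 0.16). Adjusted p-values were 0.000417 for Cdc42se2, 0.0126 for Rhpn2, 0.00368 for Fscn1, 0.0131 for Actr2 and 0.0127 for Mapre3.

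Ugcg, which makes glucosylceramide from ceramide, the substrate it shares with sphingomyelin synthases, measured 92.1, 87.7, 74.5 and 105 CPM with siNTS and 58.0, 59.0, 53.9 and 58.2 CPM with siNC (0.64 ± 0.10, adjusted p = 0.00252). Cpox, an enzyme of heme synthesis, was higher by 0.68 ± 0.10 (adjusted p = 0.00186). Srp14, a subunit of the signal recognition particle, stood at 139, 79.7, 93.8 and 97.6 CPM with siNTS and 73.3, 61.4, 55.9 and 45.5 CPM with siNC (0.79 ± 0.16, adjusted p = 0.015). None of the siNTS values of Ugcg, Cpox or Srp14 reached down into the siNC range. The regulators that rose were Id2, an inhibitor of helix-loop-helix factors (0.69 ± 0.14), the histone gene H2bc4 (0.90 ± 0.13), Rnf2, a ubiquitin ligase of Polycomb complexes (0.45 ± 0.07), and Cited2, a CBP/p300 co-regulator (0.32 ± 0.07). Eif2s3x, a subunit of the initiation factor that brings the first tRNA to the ribosome (0.41 ± 0.07), and Prkacb, a catalytic subunit of protein kinase A (0.37 ± 0.08), rose as well. Adjusted p-values of these 6 genes ran from 0.00126 for H2bc4 to 0.0484 for Cited2.

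The 3′ UTRs of the changed genes were then read for letters that they share. Each of 13833 tested genes (89.8%) was matched to its longest annotated coding transcript in GENCODE for GRCm38, among them 61 of the 63 genes that fell and 27 of the 28 that rose. Every run of 6, 7 and 8 bases in the sense strand was counted by the number of genes that hold it. The runs named here were picked because their share in a group of called genes exceeded the share in all genes by most, so these shares are a description and carry no test.

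Among the genes that fell, the 6 bases TGACAA led, present in the 3′ UTR of 54 of 61, beside 31.0% of all genes. Extended by one base, TGACAAA was in 43 of 61 (70.5%), against 13.0% of all genes and 1 of the 27 genes that rose. With 8 bases, TGACAAAT was in 26 of 61 and in 3.67% of all genes. Coding sequences held TGACAAA in 20 of the 61 (32.8%) and in 15.2% of all genes. Among the 48 genes that fell without a Zfp or Znf symbol, 10 held it in the coding sequence and 33 in the 3′ UTR (68.8%). The best 6 bases that share no run of 4 with it, TTTTAC, were in 78.7% of the genes that fell and 38.8% of all. The first copy of TGACAAA in the 3′ UTR of each of 9 genes that fell is shown in capitals with its flanking bases, on the strand of the transcript and with GRCm38 coordinates.
Vps37a, chr8:40546438-40546466, plus strand: actgctatattTGACAAAactttctgcac
Capn10, chr1:92947856-92947884, plus strand: caggcagactgTGACAAAtgctaaaacct
Zfp991, chr4:147179890-147179915, plus strand: tttgtatgTGACAAAtacaatacaat
Zfp984, chr4:147754723-147754748, minus strand: tttacatgTGACAAAtacaatattca
Ell2, chr13:75771916-75771944, plus strand: ttggggcaaaaTGACAAAaataaatgtgt
Sgms2, chr3:131322880-131322908, minus strand: tcgttcattgaTGACAAAgcccccacact
Dnajc16, chr4:141760315-141760343, minus strand: aataatttattTGACAAAttgtgtctttt
Usp12, chr5:146736033-146736061, minus strand: aagatggccttTGACAAActctttctgat
Ago3, chr4:126345435-126345463, minus strand: tttattctccgTGACAAAgagatgaaaag
Vps37a has 3 such copies in its 3′ UTR and Ago3 has 6.

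Nts itself has no TGACAAA in its 3′ UTR. Its transcript holds 1 copy, in the coding sequence, and the gene lies at chr10:102481756-102490486 on the minus strand in GRCm38.
Nts, chr10:102487936-102487964, minus strand: ggcagatctatTGACAAAcatgcatacat
Of the 18 genes with a coding transcript that fell without TGACAAA in the 3′ UTR, 11 had the shorter TGACAA. The 18 include Nts, Ubxn2a, Sspn, E2f2, Plagl2 and Zbtb18, and also Zfp978 and Zfp993, for which the transcript read has no annotated 3′ UTR. None of 1738 mature mouse microRNAs in RefSeq has a seed (bases 2 to 8) complementary to TGACAAA. Overlapping runs and other positions in the microRNAs were not searched, so a microRNA that pairs with an overlapping run would be missed. Because neither siRNA sequence was at hand, whether these letters match a strand of either siRNA was not tested.

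Among the genes that rose, a different run of 6 bases was in largest excess over all genes. GACGTA was in the 3′ UTR of 17 of 27 (63.0%), against 4.65% of all genes and 4 of the 61 genes that fell. In coding sequences it was in 2 of the 27 (7.41%) and in 6.82% of all genes, near the background. It led at 6 bases only. At 7 bases GTTTTTT led, in 63.0% of the genes that rose and 29.1% of all, and GACGTAA ranked 3, in 9 of 27 and 1.42% of all. At 8 bases CTTTATTT led, in 37.0% of the genes that rose and 11% of all, and no run that holds GACGTA was among the first 12. Of runs of 6 bases, the next that shares no run of 4 with it was CTATTT, which was in 74.1% of the genes that rose and 39.1% of all. The first copy in 5 of the genes is given in the same way, with GACGTA in capitals.
Ryk, chr9:102907090-102907117, plus strand: cttttaacgatGACGTAataacgcagag
Cdc42se2, chr11:54717572-54717599, minus strand: aagacaagatgGACGTAtttttataatc
Cpox, chr16:58679453-58679480, plus strand: gaagtttctttGACGTAattttcatgta
Rhpn2, chr7:35391986-35392013, plus strand: tacaaggtaaaGACGTAaacttactcaa
Crk, chr11:75703741-75703768, plus strand: ctgtatgagaaGACGTAaatacattgcc
The 10 genes that rose without GACGTA were Ugcg, Srp14, Fscn1, Cited2, Rnf2, Phlda1, Unc119b, Rpl7l1, Rbm18 and Gas2l1. Of the 1738 microRNAs, 0 have the complement of GACGTA at bases 2 to 7.

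**Figure D3:**
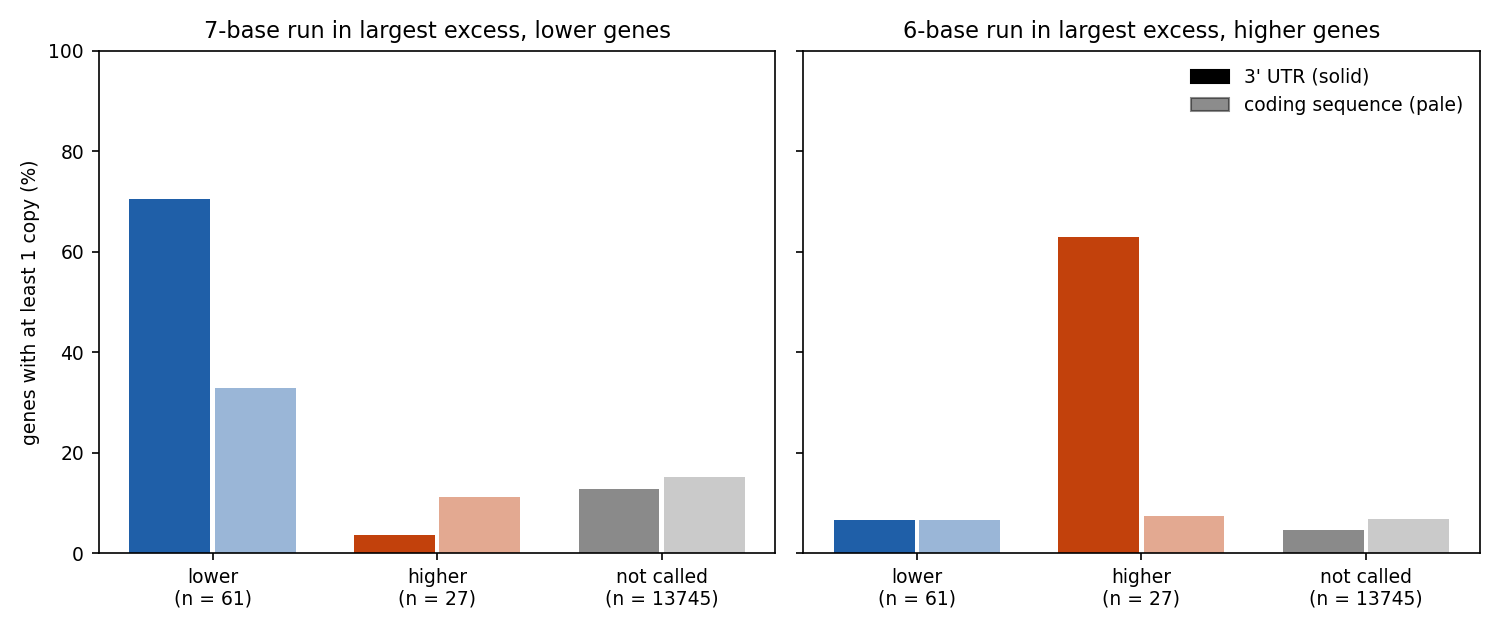
Percent of genes with at least 1 copy of the 7-base run in largest excess among the genes that fell (left) and of the 6-base run in largest excess among those that rose (right), in 3′ UTRs (solid) and coding sequences (pale), for genes called lower, called higher and not called. The tall bars are the 3′ UTRs of the genes that fell on the left, at 70.5%, and of those that rose on the right, at 63.0%.

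Genes that fell had longer 3′ UTRs, with a median of 2031 bases, than those that rose (1629 bases) and all genes (1157 bases), and a longer sequence holds any run more often. With all genes split into 4 equal classes of 3′ UTR length, TGACAAA was in 3 of 5, 9 of 13, 14 of 17 and 17 of 26 of the genes that fell, from the shortest class to the longest, beside 2.20%, 6.68%, 13.3% and 29.9% of all genes. GACGTA was in 0 of 2, 5 of 8, 7 of 10 and 5 of 7 of the genes that rose, beside 0.55%, 2.20%, 4.83% and 11%. The share in called genes was above that of all genes of like length in every class but the shortest one for GACGTA.

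The letters could also be read in the genes that did not pass, and in other libraries. Genes with 0, 1, 2 and at least 3 copies of TGACAAA in the 3′ UTR had median log2 fold changes of 0.03, −0.05, −0.10 and −0.16 at 12 h (12031, 1509, 243 and 50 genes). With the called genes left out these were 0.03, −0.05, −0.09 and −0.14. In the siNTS and siNC libraries after 4 h of hCG, which are other libraries but share the fit and its label block with the 12 h ones, the medians were 0.01, −0.05, −0.07 and −0.10. In siNC cells without hCG, 12 h against 4 h, they were −0.01, 0.01, 0.03 and −0.05. By label at 12 h, genes with 2 or more copies had a median difference of −0.11 in A_1, −0.01 in A_2, −0.13 in B_2 and −0.24 in B_3, while genes with none stood between 0.02 and 0.04. The A_2 value was thus close to 0 where the other labels were negative. At 4 h the corresponding medians were −0.23, 0.00, −0.02 and −0.06. Genes with more copies also had longer 3′ UTRs. For 0, 1, 2 and at least 3 copies the median lengths were 1003, 2445, 3623 and 5362.5 bases. In the 4 length classes, shortest first, genes not called had 12 h medians of −0.048, −0.041, −0.072 and −0.054 with TGACAAA. Without it the medians were 0.056, 0.037, 0.017 and −0.009, so they fell with length too. At 4 h they were 0.011, −0.025, −0.043 and −0.053 with it and 0.031, 0.012, −0.003 and −0.021 without.

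**Figure D4:**
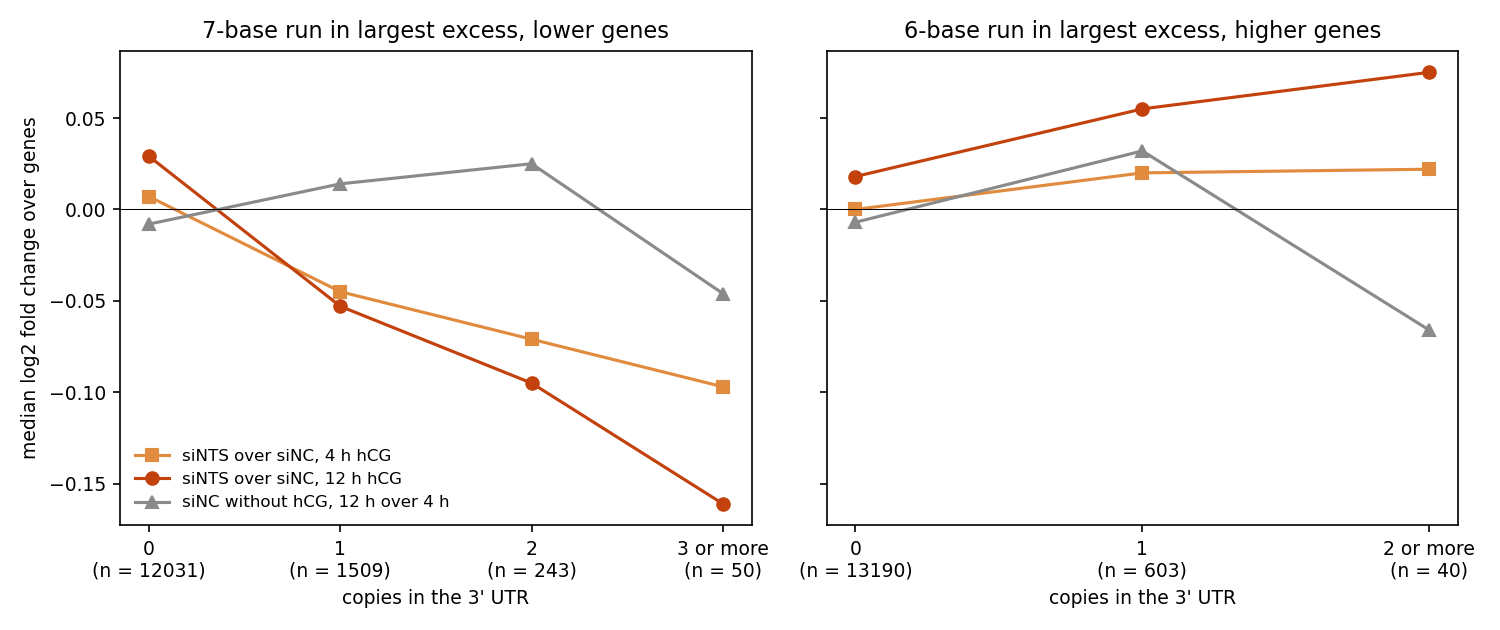
Median log2 fold change over genes, by the number of copies in the 3′ UTR of the 7-base run (left) and the 6-base run (right), for siNTS over siNC at 4 h (squares) and 12 h (circles) of hCG and for time without hCG (triangles). On the left the siRNA medians go down with each further copy, to −0.16 at 12 h and −0.10 at 4 h, and on the right they go up, to 0.08 and 0.02. Genes with more copies also have longer 3′ UTRs.

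For GACGTA, medians were 0.02, 0.06 and 0.08 with 0, 1 and at least 2 copies at 12 h (13190, 603 and 40 genes), and 0.00, 0.02 and 0.02 at 4 h. The median 3′ UTR lengths were 1098, 2733 and 4431 bases. By length class, shortest first, genes not called had 12 h medians of 0.193, 0.16, 0.072 and 0.025 with GACGTA. Without it they had 0.054, 0.032, 0.007 and −0.026. Among the 622 genes with GACGTA that were not called at 12 h, the median was 0.05 at 12 h and 0.02 at 4 h, the highest at both times of 4095 runs of 6 bases present in at least 100 such genes. In siNC cells over time without hCG it ranked 819 from the highest. TGACAAA had the second lowest median at 12 h (−0.06) of 15837 runs of 7 bases, next to the overlapping TTGACAA, and ranked 28 from the lowest at 4 h and 3204 over time without hCG. The runs overlap and share genes, so ranks describe these libraries and carry no p. By label, genes with GACGTA had a median difference of 0.08 in A_1, 0.12 in A_2, 0.05 in B_2 and −0.02 in B_3 at 12 h, and −0.11, 0.07, 0.05 and 0.03 at 4 h, so 1 label at each time lay on the other side of 0.

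After 4 h of hCG the same genes stood in the same direction with smaller values. Of the 91 genes, 90 had the same sign at 4 h, including 63 of the 63 that fell, where 60.0% of all genes tested had the same sign at both times. The libraries differ between the times but come from cultures with the same 4 labels. The median at 4 h was −0.32 for the genes that fell and 0.23 for those that rose, and each of the 91 was smaller in size than at 12 h. Because the genes were chosen on the 12 h values, a smaller value at 4 h is not a test. At 4 h itself 3 genes were called (0.0195% of genes, with 1.53% at an unadjusted p under 0.05), and all 3 fell at both times. Vps37a measured 30.2, 50.5, 39.7 and 45.2 CPM with siNTS and 68.0, 85.0, 74.9 and 83.4 CPM with siNC at 4 h (−0.93 ± 0.11, adjusted p = 0.000544). Capn10 (−1.13 ± 0.17) and Dnajc16, of the DnaJ chaperone family (−0.72 ± 0.11), had an adjusted p of 0.0191 each at 4 h. Nts was lower by 2.46 ± 0.43 at 4 h and did not pass (adjusted p = 0.0531).

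The difference between the times was tested directly, and 0 of 15405 genes passed with edgeR, with 278 (1.8%) at an unadjusted p under 0.05, 0 with limma-voom and 8 with DESeq2. The smallest p belonged to Zfp946, at −0.92 at 12 h and −0.18 at 4 h, a difference of −0.74 (adjusted p = 0.546). Znf41-ps differed by −0.81 (adjusted p = 0.638). Slc16a5 stood at −2.09 at 12 h and −0.02 at 4 h, and Pcsk6 at −0.89 and −0.09, each with an adjusted p of 1 for the difference. Medag and Bcl6b, also among the genes with the smallest p for the difference, were at 0.141 CPM or less and at 1.41 CPM or less in every library of the 12 h comparison.

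**Figure D5:**
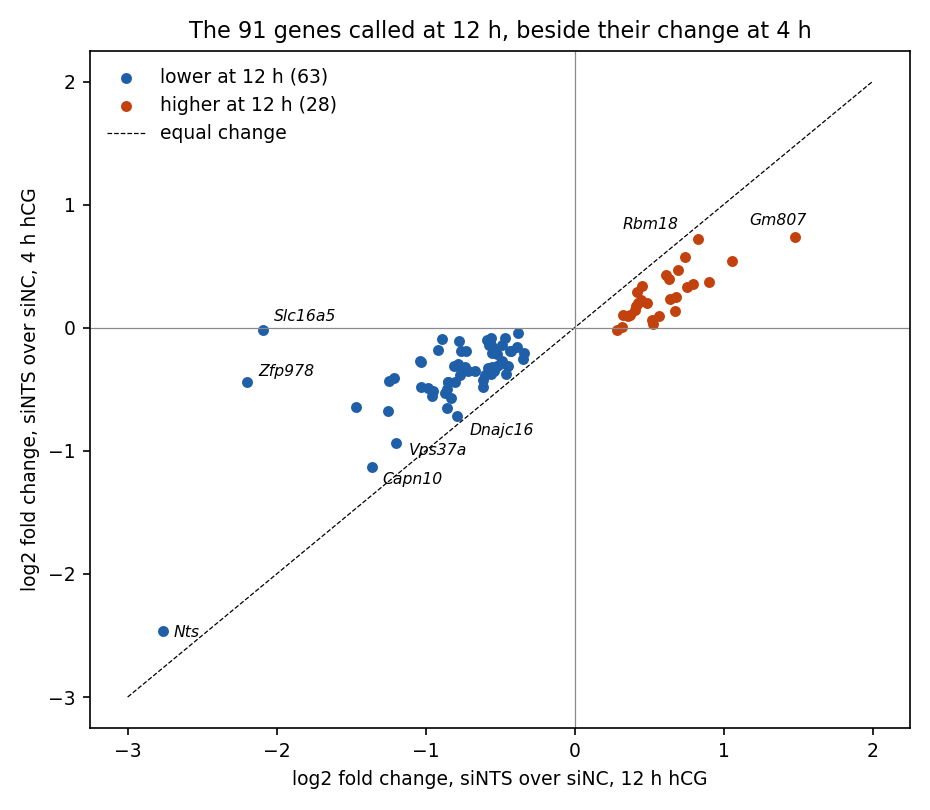
Log2 fold changes of siNTS over siNC at 12 h (horizontal axis) and 4 h (vertical axis) of hCG for the 91 genes called at 12 h, with the dashed line where both are equal. All 63 genes that fell at 12 h lie below 0 at 4 h and above the dashed line, with Nts lowest at −2.46 and Slc16a5 close to 0 at 4 h.

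Genes of ovulation and steroid synthesis, which hCG is known for, gave 1 call. Of 19 tested genes of steroid synthesis 0 passed with edgeR (0 at an unadjusted p under 0.05, 0 with DESeq2), and the list's median was 0.015, as was that of all genes. Star, which brings cholesterol into mitochondria, measured 282, 761, 387 and 496 CPM with siNTS and 344, 730, 453 and 697 CPM with siNC (−0.20 ± 0.26, adjusted p = 1). The groups overlap and the labels differ in direction. Cyp11a1, the side-chain cleavage enzyme, had a log2 fold change of −0.00 ± 0.17 and Hsd3b1 −0.16 ± 0.13. Of 22 genes of cholesterol synthesis 0 passed (0 unadjusted, 0 with DESeq2), with a median of −0.05, and of 21 preovulatory granulosa genes 0 passed (3 unadjusted, 0 with DESeq2), with a median of 0.06. Lhcgr, the hCG receptor, stood at 0.10 ± 0.28.

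Of 34 ovulatory genes 1 rose, Cited2, and 0 fell, where 0.591% of all genes were called. In that list 4 had an unadjusted p under 0.05, and DESeq2 called Cited2 as well. Under all 4 labels 8 were higher and 2 lower (23.5% and 5.88%), beside 10% and 9.89% of all genes. Ovulatory genes that did not pass include Ptgs2, the inducible prostaglandin synthase (−0.15 ± 0.28), and the progesterone receptor gene Pgr (0.39 ± 0.28). The EGF-like ligand genes Areg (0.37 ± 0.25) and Ereg (0.26 ± 0.26) did not pass either. Has2, hyaluronan synthase, averaged 0.613 ± 0.133 CPM with siNTS and 1.27 ± 0.332 CPM with siNC (SD, n = 4 each) and was lower under all 4 labels, without passing (−1.03 ± 0.32, adjusted p = 0.261). With standard errors of about this size, a gene that did not pass is not shown to be unchanged.

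Immediate early and ERK genes had mostly positive values. Of 25 immediate early and cAMP-responsive genes 0 passed with edgeR (7 at an unadjusted p under 0.05; 1, Fos, with DESeq2), but 12 were higher with siNTS under all 4 labels and 0 lower under all 4, where 10% and 9.89% of all genes were. The list's median was 0.23 at 12 h and −0.05 at 4 h. Fos, an AP-1 subunit, measured 7.63, 9.10, 9.24 and 24.7 CPM with siNTS and 7.01, 6.42, 5.89 and 11.2 CPM with siNC (0.63 ± 0.15, adjusted p = 0.0572). The highest of its 8 values is the siNTS library B_3. Of 18 ERK targets and feedback genes, Phlda1, an apoptosis-related gene, rose (0.57 ± 0.12, adjusted p = 0.0377) and 0 fell, where 0.591% of all genes were called. In that list 5 had an unadjusted p under 0.05, DESeq2 called Phlda1 as well, and limma-voom called 0. Under all 4 labels 10 were higher and 1 was lower, and the median was 0.26 at 12 h and 0.01 at 4 h.

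Interferon-stimulated genes had mostly negative values. Of 28 tested, 0 passed with edgeR (6 at an unadjusted p under 0.05, where 6.24% of all genes were), and DESeq2 called 1, Rsad2. The list's median was −0.24. Under all 4 labels 8 were lower (28.6%) and 0 higher, beside 9.89% and 10% of all genes. Rsad2, the antiviral enzyme viperin, measured 2.31, 6.70, 4.56 and 7.22 CPM with siNTS and 6.35, 17.4, 23.1 and 14.6 CPM with siNC (−1.50 ± 0.38, adjusted p = 0.0997). It was lower under every label, and the ranges overlap. Ifit3 stood at −1.55 ± 0.51 (adjusted p = 0.33). The list's median difference was −0.74 under label B_2 and between −0.08 and −0.17 under the others, and at 4 h it was −0.59 under B_2. Rsad2 and Ifit3 each have 1 copy of TGACAAA in the 3′ UTR, where 13.0% of all genes hold it. Ifit2 has none and was also lower under all 4 labels without passing (−0.86 ± 0.35, adjusted p = 0.62). These genes were picked after their values were seen, and copies in the rest of the list are not given here.

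The siNTS minus siNC difference of glycolysis and hypoxia genes was largest under label B_3. Summed glycolysis levels were 16600, 10000, 11900 and 18000 CPM in siNTS libraries A_1, A_2, B_2 and B_3, and 15900, 10400, 11700 and 10800 CPM in the siNC libraries, so both A_1 libraries were high as well. All 20 glycolysis genes had a positive log2 fold change, with a median of 0.21, and 0 passed with edgeR (3 unadjusted, 0 with DESeq2). The median difference was 0.67 under label B_3 and between −0.00 and 0.05 under A_1, A_2 and B_2. Slc2a1, the main glucose transporter gene, measured 408 CPM in siNTS library B_3, 59.5 to 82.5 CPM in the other siNTS libraries and 51.2 to 80.2 CPM with siNC. The hypoxia and angiogenesis list had a median difference of 0.40 under B_3 and between −0.07 and 0.04 under the others, and the cytokine and NF-kB list 1.04 under B_3 and between 0.00 and 0.18 elsewhere. Of these 2 further lists 0 genes passed with edgeR (3 hypoxia genes and 0 cytokine genes unadjusted, 0 with DESeq2), and the part of that library in the other results was not tested beyond leaving it out.

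The remaining lists gave no calls with edgeR. They were p53 targets, the unfolded protein and ATF4 response, cell cycle, matrix, proteases, migration and adhesion, heat shock and oxidative stress, apoptosis, G protein signalling and the circadian clock, with medians between 0.01 and 0.09 and 0 or 1 gene each at an unadjusted p under 0.05. DESeq2 called Gsr, glutathione reductase, in the heat shock and oxidative stress list and none in the other 9. Markers of theca, immune, endothelial, fibroblast, surface epithelial and erythrocyte cells had 0 called by edgeR and by DESeq2 (1 immune and 1 endothelial gene unadjusted). Smooth muscle markers had a median of 0.47 over 5 genes, all 5 positive, with 0 called by edgeR (2 unadjusted) and 1, Acta2, by DESeq2. The 9 oocyte markers had a median of 3.55 and 0 called by edgeR (0 unadjusted), while DESeq2 called 1, Nlrp5. Their median difference was 3.44 under A_1 and 0 under the other labels, where several markers had no counts. Their sums were 7.01, 6.03 and 3.55 CPM in siNTS libraries A_2, B_2 and B_3, against 4.63, 4.68 and 3.85 CPM with siNC. Whether the oocyte RNA in A_1 has a part in any called gene was not tested, except that without A_1 86 of the 91 genes were still called in the same direction.

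The authors' deposited table for this comparison, made with their own filter and model, lists 14362 genes, of which it marks 122 as higher and 209 as lower. It marks all 28 genes that rose here and 62 of the 63 that fell, which is 23.0% and 29.7% of its own lists. In the authors' deposited table, 124 of the 200 genes marked lower that have a coding transcript hold TGACAAA in the 3′ UTR (62.0%), and 46 of the 119 marked higher hold GACGTA (38.7%). Of those that only the authors' deposited table marks, the shares were 81 of 140 (57.9%) and 29 of 92 (31.5%). Among all genes, 13.0% hold TGACAAA and 4.65% hold GACGTA. The authors' table is for the same comparison in the same series, so its genes are not an independent set and these shares carry no test.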

How the data were processed

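RNA from primary mouse granulosa cells was sequenced as stranded mRNA libraries over 151 cycles from both ends, per the labels' protocols. The authors deposited estimated counts per gene, not scaled between libraries; GRCm39, Salmon 1.4.0, limma, edgeR and R 4.1.0 are named, without roles, per the submitters' processing notes. Salmon divides reads between similar transcripts by estimate, so close gene copies can trade counts. Log2 fold changes and p-values that the authors deposited for this comparison were used only for the counts credited to them; their model is not given in the sources used here.

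Estimated counts were rounded to whole numbers. Genes kept by edgeR's filterByExpr numbered 15405 of 39253 and held 99.97% of counts. All 24 libraries entered 1 quasi-likelihood fit in R 4.3.3 (edgeR 4.0.16), TMM-scaled, blocked on culture label, with Benjamini-Hochberg adjustment over all genes and a threshold of 0.05. Standard errors are the fold change over the root of F. Log2 differences per label used a prior count of 2. Alternatives were DESeq2 1.42.0, limma 3.58.1 (voom), other scaling, filters and blocks, the 8 libraries alone, each label left out in turn, and a 1.5-fold minimum. The fit was tested on simulated data, where it recovered 32 of 100 genes changed by 0.5 on the log2 scale and 80 of 100 changed by 1. Of 119 genes called there, 7 were false. The labels recur in both groups and the titles give each a date, so they were taken to pair the libraries. As a check, deviations from group means correlated at 0.957, 0.819, 0.463 and 0.492 within labels over 10798 genes, each the highest of its row. Counts of replicates differed by more than sampling noise, with chi-square per degree of freedom of 25.6 or more.

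Named genes are Nts; up to 15 each way with the largest changes among those called, moved alike under all 4 labels, at 1 CPM or more in the higher group and with a symbol other than a predicted-gene name; members of the neurotensin list and main ovulatory genes whatever their values; up to 4 called members of each of 32 lists; and up to 5 each way with the smallest p for the difference between times. Other genes were chosen after their values were seen, as were the sequence runs, which come from GENCODE M21 transcripts (GRCm38) and not from the build of the counts. The comparison and the lists were chosen with earlier results of these data known. A result for 1 gene is not reported here.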

Additional observations from a re-analysis of the deposited data

Results flagged for a closer look

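In groups of 4 libraries, 182 sets of values were searched for a library far from the other 3, and 29 were marked. The sets were of named genes, of lists, and of further genes picked after their values were seen. Chance marks about 1 set in 20 where sets are independent and not picked. Here some genes were picked for such values and others move together, so the 29 cannot be set against that rate. The marks gather in a few libraries. The siNTS library A_1 was high for the oocyte transcripts Gdf9 (5.85 CPM), Oosp1 (1.51), Bmp15 (1.39), Dppa3 (1.20), Zp2 (0.893), Zp3 (0.80) and Nlrp5 (0.523), and low for Prkacb (104 CPM, against 118 to 120 CPM in the other siNTS libraries). Zp3 was also marked in siNC library A_2, at 0.0233 CPM where the others were listed at 0. The siNTS library B_3 was high for Slc2a1 (408 CPM), Slc16a3 (239), Egln3 (146), Fos (24.7), Ankrd37 (16.7), Nts (2.73) and Bcl6b (1.41) and for the summed cytokine and NF-kB genes (742 CPM, against 298 to 313 CPM). The siNC library B_3 was high for the same sum (418 CPM, against 284 to 290 CPM), for Egr1 (126), Nts (9.67) and Phlda1 (8.54), and low for Pcsk2 (0.746).

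The siNC library A_1 was low for Setd7 (145 CPM), Sort1 (68.2), Foxp2 (19.1) and Zfp982 (5.19) and high for E2f2 (40.6) and Thop1 (55.1). Thop1 was low in siNTS library A_2 (48.0 CPM). For Setd7, Foxp2 and Zfp982 the siNTS library with label A_1 was also the lowest of its group, and the pair was lower with siNTS as in the other labels.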

How the results depend on the processing

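Over 13 alternatives the 91 called genes had 1181 values, all 1181 in the same direction. The number called was 25 without the replicate block (7 higher, 18 lower), 75 with culture date as replicate block, 187 with DESeq2 (74 and 113), 88 with limma-voom, 129 with the 8 libraries alone (95 lower) and 4 with a minimum change of 1.5-fold (0 higher, 4 lower); 18 were higher with no filter on low counts. Leaving out a label gave 14 to 151 in all (2 to 57 higher, 12 to 94 lower). Of the 91 genes, 13 were called in all 4 such fits, among them Vps37a, Capn10, Ell2, Ubxn2a, Zfp946 and Ryk. Only 1 of the 4 fits called 22 of the genes that rose and 37 of those that fell, among them Id2, Ago3, Pcsk6, Foxp2, Sgms2, Nras and E2f2. None of the 4 called Ednra, Zfp978, Zfp942 or Daxx. At 4 h the 3 genes, all lower, became 1 without the replicate block, 18 with DESeq2 (8 higher, 10 lower), 0 at 1.5-fold and 0 to 9 without a label (0 to 1 higher, 0 to 8 lower). The difference between times had 0 called except with DESeq2 (8, 4 each way). TGACAAA was in 82.4% (14 of 17) of the genes called lower without the replicate block and 100% (3 of 3) at 1.5-fold. Without a label it was in 66.7% (60 of 90) to 90.9% (10 of 11). GACGTA was in 57.1% to 100% of those called higher without a label, where the 100% values rest on 2 to 5 genes. With DESeq2 the shares were 63.0% (68 of 108) for TGACAAA and 46.5% (33 of 71) for GACGTA, lower than in the edgeR calls. With any annotated 3′ UTR of a gene, an alternative chosen after seeing the data, the called genes' shares of TGACAAA stayed at 70.5% and 3.7%, beside 14% of all genes. Signs turned for 5 genes, none of them called. Cyp11a1 stood at 0.0017 without the replicate block and between −0.0287 (without A_2) and 0.0168 (without B_3) with a label left out, with 0.0043 without A_1. With a label left out Lhcgr ranged between −0.0028 and 0.2347, Sort1 between −0.0055 and 0.0505, Sorl1 between −0.0119 and 0.1621, each negative without A_2, and Ece1 between −0.0478 and 0.0647, negative without A_2 and without B_2 (−0.0082). The cause of these moves was not tested, apart from the fewer libraries in fits that leave some out.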

Other observations

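Of tested zinc finger symbols with a coding transcript, 88 of 365 (24.1%) hold TGACAAA in the coding sequence, beside 15.2% of all genes. Copies were counted here only for called genes. Those of the chromosome 4 cluster hold it mainly inside the coding sequence: 22 copies in Gm13212, 13 in each of Zfp991, Zfp984 and Zfp992, 7 in Zfp982, 6 in Zfp978 and 5 in Zfp979. The pseudogene Znf41-ps has 12, while Zfp993 had 0 in the transcript read. Of chromosome 17 genes, Zfp758 has 11, Zfp994 10, Zfp942 7 and Zfp946 6. Among the genes that fell without a zinc finger symbol, Smarca2 has 2 copies in its coding sequence. Each of Zfp991, Zfp984, Zfp992, Zfp982 and Gm13212 has 1 copy in its 3′ UTR as well.

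Called genes with several copies of TGACAAA in the 3′ UTR include Foxp2, Pcsk6, Zfp994, Ptpdc1 and Fam126b with 3 each, at −0.85, −0.89, −0.77, −0.57 and −0.55 on the log2 scale. Among genes with at least 3 copies 14.0% (7 of 50) were called lower, beside 0.15% (18 of 12031) of genes with none. The run was picked from these same called genes, so these shares are a description and carry no test. The median 3′ UTR was 5362.5 bases with at least 3 copies and 1003 bases with none. Slain2 was higher by 0.48 with 2 copies of TGACAAA and 1 of GACGTA in its 3′ UTR, and Pdap1 was lower by 0.76 with 2 copies of GACGTA and 0 of TGACAAA.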
